A study of Mus musculus with 6 samples.

Results

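The genes described here encode the subunits of oxidative phosphorylation, the mitochondrial machinery that makes most of the ATP of brain tissue. Members were chosen by name: every gene with its own probe set whose symbol begins Nduf (followed by a, b, c, s or v), Uqcr, Cox (4 to 8) or Atp5, or is Cyc1 or one of Sdha to Sdhd. This gave 72 genes of 8251 named on the array, with 29 in complex I, 4 in complex II, 8 in complex III, 14 in complex IV and 14 in complex V, and 3 further genes that the names also match, the complex I assembly factors Ndufaf1 and Ndufaf4 and the supercomplex factor Cox7a2l. Where a gene had several probe sets, the brightest one over all arrays stood for it. Of the 72, 66 passed the filter on dim probe sets (mean signal of at least 134.7 over all arrays) and were tested.

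Complexes I to IV pass electrons from NADH and succinate to oxygen, complexes I, III and IV pump protons across the inner mitochondrial membrane as they do so, and complex V, the ATP synthase, lets the protons back to make ATP. The proteins encoded by these genes are encoded in nuclear DNA and imported, and complexes I, III, IV and V also hold subunits encoded by mitochondrial DNA, which were not analysed here. In the cerebral cortex most ATP is spent on ion pumping that follows synaptic and spike activity, and staining for cytochrome oxidase, complex IV, is a long-used marker of the activity of visual cortex.

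The arrays measured RNA of visual cortex from wild-type C57Bl6 mice, in which 1 eye was removed at postnatal day 100 and the tissue was taken 4 days later. No genetic change or drug treatment is given for either group. The 3 deprived arrays hold cortex contralateral to the lost eye, the side that in mice receives most fibres of that eye, and the 3 non-deprived arrays hold cortex ipsilateral to it. Both groups therefore come from enucleated animals, 4 in all, and no intact animals were included. The samples are described as pooled. The labels do not say if each array had a pool of its own, and the p-values therefore reflect differences among these 6 samples that may be technical.

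Signals are MAS5 units on a linear scale. Values below are for n = 3 arrays per group, except where an array is said to be left out. Log2 changes, taken on log2(signal + 16), are positive where deprived cortex read higher. Median signal per array ranged from 202.8 to 219.7, and arrays correlated at 0.945 to 0.961 between groups and 0.948 to 0.958 within a group across the 7453 tested probe sets. One array stood apart. Its control probe set for the 3′ end of 18S rRNA gave 2689 in replicate 3 of the non-deprived group, while the remaining arrays gave 661 to 981, and results are therefore given with and without it. The RNA was of bulk tissue, in which fewer cells of a type and less RNA per cell cannot be told apart.

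The comparison set the mRNA of these genes in cortex opposite the lost eye against that of the cortex on its own side. No member passed the threshold. By limma with Benjamini-Hochberg adjustment over all 7453 probe sets, 0 of 66 tested members had an adjusted p under 0.05 (smallest adjusted p = 0.95), against 13 probe sets, or 0.174%, of all those tested. An unadjusted p under 0.05 was found for 2 members, Atp5mpl and Ndufb11, both with a lower mean in deprived cortex. This is 3.03% of the members, against 5.09% of all probe sets, of which 2.42% were lower and 2.67% higher.

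Changes were small in both directions. The median log2 change over the 66 members was -0.06, with an interquartile range of -0.10 to 0.04, against a median of 0.01 over all probe sets tested. A lower mean in deprived arrays was found for 44 members (66.7%), against 47.8% of all probe sets tested. Many members are bright, with 31 of 66 among the brightest 10% of probe sets. In that brightest 10%, looked at after the members' values were seen, 56.8% were lower, with a median of -0.02. All deprived arrays lay below all non-deprived arrays for 5 members (7.58%), against 4.59% of all probe sets, and above them for 2 members (3.03%), against 5.5%.

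The members were measured more tightly than most probe sets. Their replicate SD had a median of 0.15 on the log2 scale, against 0.21 for all those tested, and the median SE of the change was 0.12. The members were also brighter, with a median mean signal of 2103 against 492 for all those tested. Their spread was not compared with that of probe sets of like brightness. For 46 of the 66 members the 95% interval of the log2 change lay within 0.5 either way, and for 19 within 0.3 either way. At the other end, 4 intervals reached beyond 1. In simulated data, changes were placed in probe sets drawn from all 7453, each with its own spread on these arrays. The test recovered 0.2% of 1.2-fold, 18% of 1.5-fold and 52.4% of 2-fold changes. Rates for the members, with their tighter spread, were not simulated.

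**Figure D1:**
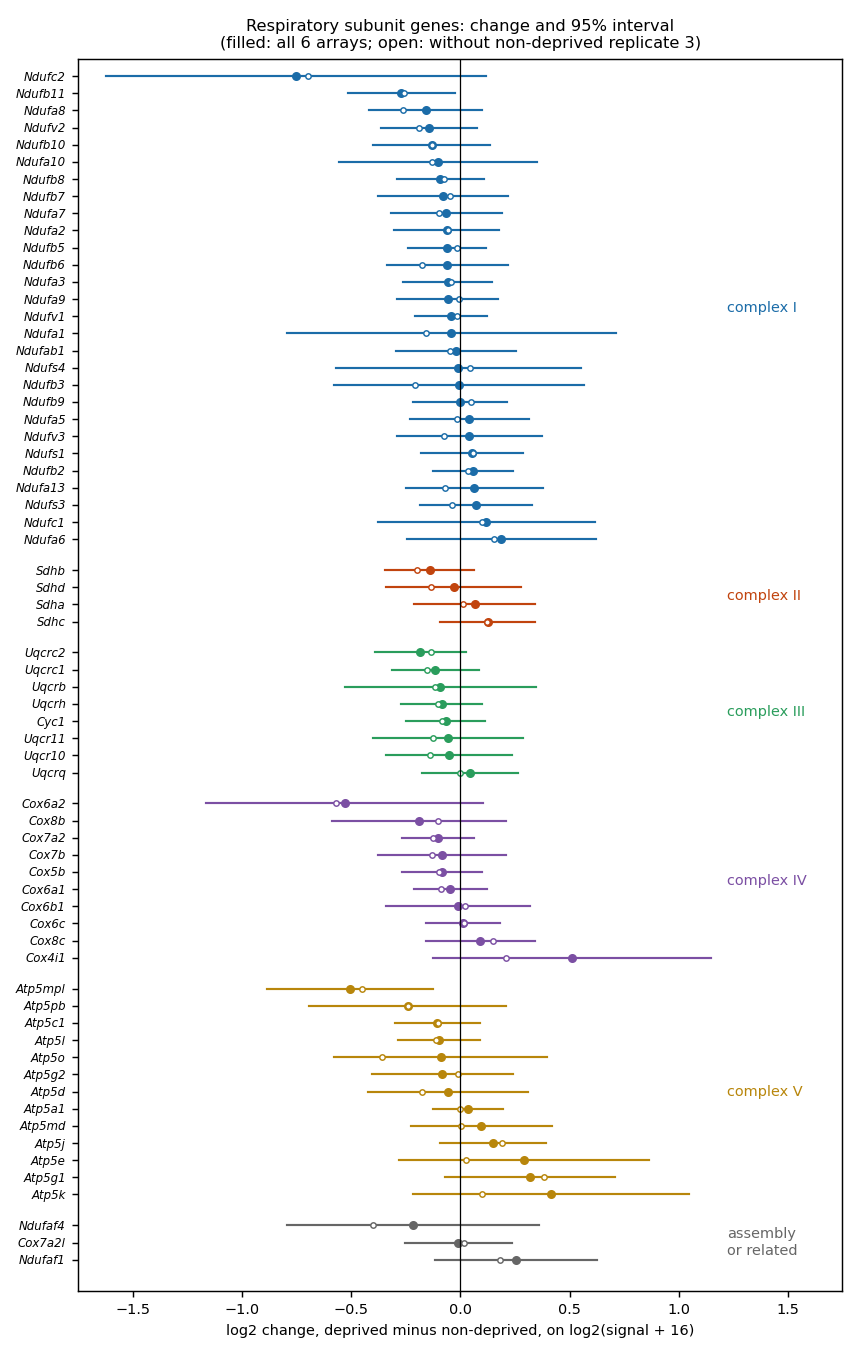
Log2 change (x axis, deprived minus non-deprived) of the 66 tested members, grouped by complex and ordered by size. Filled points are the fit on all 6 arrays with the 95% interval as a line, open points the fit without non-deprived replicate 3; all intervals but those of Ndufb11 and Atp5mpl reach across 0.

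Leaving out single arrays moved the balance of lower and higher members. With the array of high 18S signal left out, 47 of 66 members (71.2%) were lower, against 48.3% of all probe sets, and the median was -0.08. The number lower was 35 when non-deprived replicate 1 was left out and 37 when deprived replicate 2 was, and the median without deprived replicate 2 was -0.02. In none of these fits did a member pass the threshold. Without non-deprived replicate 3 the members with an unadjusted p under 0.05 were again 2 (3.03%, against 4.33% of all probe sets, 1.89% lower and 2.44% higher), but these were Ndufa8 and Atp5o rather than Atp5mpl and Ndufb11. All deprived arrays then lay below the remaining non-deprived arrays for 11 members (16.7%), against 8.8% of all probe sets, and above them for 2 (3.03%), against 10.1%. With deprived replicate 1 left out instead, 5 members had an unadjusted p under 0.05, all of them lower (Atp5mpl, Cox6a2, Ndufb11, Ndufc2 and Uqcrc2). This is 7.58% of the members, against 2.37% of all probe sets lower and 1.78% higher in that fit. With non-deprived replicate 1 left out, 2 members were lower (Atp5mpl and Cox8b) and 3 higher (Atp5md, Cox4i1 and Ndufb3) at an unadjusted p under 0.05, against 2.95% and 4.55% of all probe sets. In that fit 11 members (16.7%) had every deprived array below the non-deprived ones, against 11% of all probe sets, and 11 (16.7%) above, against 13.2%. None of these members passed after adjustment.

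The arrays of a group differed in where they placed the members. Across the 66 members, the median of log2 signal minus the gene's own mean over all arrays was 0.06 in non-deprived replicate 1, 0.03 in replicate 2 and -0.02 in replicate 3, and -0.02, -0.04 and 0.00 in the deprived arrays 1 to 3. Non-deprived replicate 3 lay among the deprived arrays. For all probe sets tested the same medians lay between 0.00 and 0.02. Non-deprived replicate 1 was the highest of the 6 arrays for 22 members (33.3%, against 15.8% of all probe sets tested), deprived replicate 2 was the lowest for 18 (27.3%, against 16.2%) and non-deprived replicate 3 the lowest for 16 (24.2%, against 19.9%). The ratio of 3′ to 5′ β-actin signal, a measure of RNA integrity, was 1.51, 1.36 and 1.28 in the non-deprived and 1.63, 1.26 and 1.49 in the deprived arrays. The part of RNA quality or of the 18S signal in these positions was not tested.

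**Figure D2:**
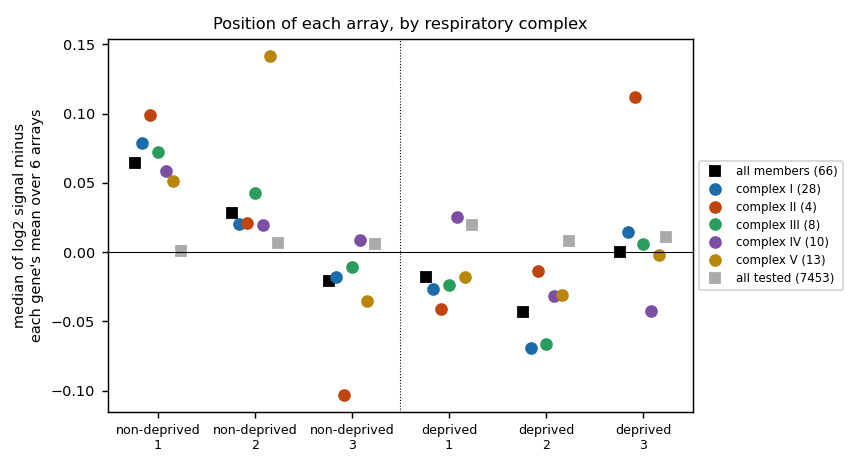
Median over members of log2 signal minus each gene's mean over 6 arrays (y axis) for each array (x axis), by complex, for all members and for all probe sets tested, with the number of genes in brackets. Members as a whole lie at 0.06 and 0.03 in non-deprived replicates 1 and 2 and between -0.04 and 0.00 in the other 4 arrays.

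Promoters of respiratory genes are known targets of nuclear respiratory factor 1 (NRF-1), a transcription factor that binds a GC-rich palindrome, and its consensus palindrome was searched on both strands in the 250 bases before each gene's start (RefSeq, GRCm38.p6). Promoters were listed for 58 members, and 9 of them (15.5%) held it, against 4.23% of 27025 genes. The 9 were Atp5k, Ndufa8, Atp5c1, Ndufaf4, Cox6a1, Atp5g2, Sdha, Ndufa5 and Sdhd. The letters CCGGAAGT, an ETS-type site, were in 3.45% of member promoters and 3.23% of all, and AAGATGGCG, a YY1-type site, in 1.72% and 0.71%; both were added after the values were seen. The promoters of 4 members are shown as examples of where the palindrome sits and which letters it has, in order of the members' p-values, leaving out those with a second start inside the window; capitals mark the palindrome.
Atp5k, chr5:108434400-108434649, minus strand: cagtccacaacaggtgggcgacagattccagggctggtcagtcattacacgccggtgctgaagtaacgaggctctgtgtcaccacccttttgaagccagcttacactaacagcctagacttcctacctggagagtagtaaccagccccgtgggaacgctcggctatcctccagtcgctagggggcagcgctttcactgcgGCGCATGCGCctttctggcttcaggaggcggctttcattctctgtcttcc
Ndufa8, chr2:36049339-36049588, minus strand: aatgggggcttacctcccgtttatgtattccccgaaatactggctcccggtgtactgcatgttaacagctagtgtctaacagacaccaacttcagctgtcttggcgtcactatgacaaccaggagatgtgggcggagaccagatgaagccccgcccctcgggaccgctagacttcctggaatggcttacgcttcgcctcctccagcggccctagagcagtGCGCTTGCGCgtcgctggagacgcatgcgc
Ndufaf4, chr4:24897833-24898082, plus strand: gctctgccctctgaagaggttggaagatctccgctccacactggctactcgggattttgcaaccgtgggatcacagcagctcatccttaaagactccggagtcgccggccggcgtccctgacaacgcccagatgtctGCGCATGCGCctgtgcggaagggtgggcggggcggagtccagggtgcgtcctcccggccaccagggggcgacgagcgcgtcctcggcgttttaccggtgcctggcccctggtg
Cox6a1, chr5:115348959-115349208, minus strand: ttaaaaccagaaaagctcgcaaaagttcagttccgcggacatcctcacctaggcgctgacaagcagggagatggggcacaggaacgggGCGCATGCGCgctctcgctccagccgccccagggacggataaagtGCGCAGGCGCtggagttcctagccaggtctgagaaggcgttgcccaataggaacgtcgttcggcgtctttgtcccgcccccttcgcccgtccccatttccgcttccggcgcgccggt

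The palindrome began 50 bases before the start in Atp5k, 30 in Ndufa8 and 113 in Ndufaf4, and Cox6a1 held 2 copies. The 9 members with it had log2 changes from -0.22 to 0.42 with a median of -0.05, and the 43 tested members whose listed promoter lacked it had a median of -0.06. The difference between these medians was not tested. A match is a run of letters and not a measured binding site.

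Complex I takes electrons from NADH and is the largest of the complexes. Of its 28 tested genes 19 had a lower mean in deprived cortex, the median log2 change was -0.05 and 0 passed the threshold. Of the conserved core subunits 4 were tested. Where brackets below hold a value and a range, they are the log2 change and its 95% interval, and array values run from replicate 1 to 3, non-deprived first. Ndufv1, which binds NADH and the flavin, read 6439, 6173 and 6654 in non-deprived and 5946, 6435 and 6325 in deprived arrays, with a log2 change of -0.04 (95% interval -0.21 to 0.12). The groups overlapped. Ndufs1, the largest subunit and a carrier of iron-sulphur clusters, read 1613, 1463 and 1561 against 1588, 1486 and 1741 (0.05, -0.18 to 0.29). For Ndufs3, which helps to join the arm that takes up electrons to the membrane arm, the values were 3226, 2831 and 2410.5 against 3053, 2756 and 3036 (0.07, -0.19 to 0.33). Non-deprived replicate 3 was the lowest of the 6 for Ndufs3, and without it the change was -0.04. Ndufv2, another iron-sulphur subunit, read 2171, 2335 and 2036 against 2078.5, 1862 and 1974 (-0.14, -0.36 to 0.07), and a dimmer probe set of the gene gave 0.05 (SE 0.18).

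Among the accessory subunits of complex I, Ndufb11 had the smallest p. This X-linked gene encodes a subunit of the membrane arm needed for assembly. Its signal was 1468, 1407 and 1476 in non-deprived and 1274, 1074 and 1257.5 in deprived arrays, so that the groups did not overlap. The means were 1450.3 ± 37.8 and 1202 ± 111, a 1.21-fold difference (log2 change -0.27, -0.52 to -0.03, limma adjusted p = 0.95). Without non-deprived replicate 3 the change was -0.26 (95% interval -0.55 to 0.03). Ndufc2, a small membrane-arm subunit, read 189, 203 and 221 against 177, 144 and 56.2. The groups did not overlap either, but deprived replicate 3 at 56.2 stood far below the other 5 arrays, and the interval of the log2 change of -0.75 ran from -1.62 to 0.12 (adjusted p = 0.97). Without deprived replicate 3 the change was -0.33. Its deprived mean of 126 lies under the filter's 134.7, which is a cut by rank and not a detection limit. Whether this signal stands above background is not known.

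Ndufa8, an accessory subunit held by disulphide bonds on the intermembrane side, read 1743, 1819 and 1430.0 against 1454, 1518 and 1469.5 (-0.16, -0.42 to 0.10). Non-deprived replicate 3 lay below every deprived array, while the other non-deprived arrays lay above them, and without it the change was -0.26 (95% interval -0.50 to -0.02, adjusted p = 1.00). Ndufs4, whose loss causes a fatal encephalopathy in mice, read 205, 153 and 201 against 183, 198 and 170.5. The groups overlapped, and its log2 change was -0.01 (-0.57 to 0.55). Ndufab1, which doubles as the mitochondrial acyl carrier protein, had a log2 change of -0.02 (-0.29 to 0.25) and Ndufa13, also known as an apoptosis-linked gene, 0.06 (-0.25 to 0.38).

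Of the other accessory subunits, Ndufb5 read 8002, 7609.6 and 8620.0 against 7638, 7362 and 8212 (-0.06, -0.24 to 0.12). The Ndufb9 values were 2265, 2315 and 2526 against 2306, 2239.6 and 2566, and the log2 change was 0.00 (-0.22 to 0.22). In both genes the groups overlapped throughout. The remaining 16 tested genes (Ndufa1, Ndufa2, Ndufa3, Ndufa5, Ndufa6, Ndufa7, Ndufa9, Ndufa10, Ndufb2, Ndufb3, Ndufb6, Ndufb7, Ndufb8, Ndufb10, Ndufc1 and Ndufv3) had log2 changes between -0.13 for Ndufb10 and 0.19 for Ndufa6, with overlapping groups in each. The widest 95% interval among them was that of Ndufa1, -0.79 to 0.71. Ndufb3 had 1 array far above the rest, with 2654 in non-deprived replicate 1 against a range of 1203 to 1769 elsewhere. Ndufa12 averaged 89.9 over all arrays and was not tested.

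Complex II oxidises succinate, links the citric acid cycle to the chain and has no mitochondrially encoded subunit. All 4 genes were tested, 2 had a lower and 2 a higher mean, and the median log2 change was 0.02. Sdha, the flavoprotein that oxidises succinate, read 685, 672 and 606 in non-deprived and 701, 677 and 675 in deprived arrays (0.06, -0.21 to 0.34). Sdhb, the iron-sulphur subunit, gave 3219.8, 3062.5 and 2786 against 2798, 2787 and 2623 (-0.14, -0.34 to 0.06). The other non-deprived arrays lay above all deprived ones, and non-deprived replicate 3 lay among them. Of the membrane anchors, Sdhc read 2144, 2134 and 2129 against 2163, 2264 and 2584, with every deprived array higher (0.13, -0.09 to 0.34, adjusted p = 0.97), and Sdhd 2565, 2274 and 1942 against 2036.5, 1982 and 2626 (-0.03, -0.34 to 0.28). Catalytic and anchor subunits thus each held 1 gene with a lower and 1 with a higher mean. Non-deprived replicate 3 was the lowest array for 3 of the 4 genes, and without it the median was -0.06.

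Complex III passes electrons from ubiquinol to cytochrome c. A lower mean in deprived cortex was found for 7 of 8 genes, with a median log2 change of -0.08. Leaving out 1 array gave from 5 of 8 lower (with replicate 1 of either group left out) to 8 of 8 (without non-deprived replicate 3, with a median of -0.12). None passed, and no test compared this complex with the others. Uqcrc2, a core protein of the matrix side, read 3722, 3604 and 4059 against 3670.1, 3202 and 3159. Only deprived replicate 1 reached into the non-deprived range, and the means were 3795 ± 236 and 3344 ± 283 (log2 change -0.18, -0.39 to 0.03, adjusted p = 0.97). Uqcrc1, its partner, read 3349.6, 3428 and 3132.5 against 2904, 3284 and 2961 (-0.12, -0.31 to 0.08).

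The hinge protein Uqcrh, which binds cytochrome c1, was one of the members without overlap, at 3006, 3029.9 and 2907 against 2860.0, 2689.6 and 2878. The gap between the groups was small, and its log2 change was -0.09 (-0.27 to 0.10). Cyc1, cytochrome c1 itself, carries the electron-donating haem and read 7007.5, 7264 and 6856 against 6983, 6113.5 and 7102 (-0.07, -0.25 to 0.11). Its other probe set, also bright, had a log2 change of 0.00 (SE 0.08). The small subunits Uqcrb, Uqcrq, Uqcr10 and Uqcr11 had log2 changes of -0.09, 0.05, -0.05 and -0.06, with overlapping groups. Of the 8 genes Uqcrc2 had the largest log2 change in size.

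Complex IV, cytochrome c oxidase, reduces oxygen to water, and its nuclear subunits surround a mitochondrially encoded catalytic core. Of the 10 tested genes 7 had a lower mean, the median log2 change was -0.07 and 0 passed. Cox6a1, the form of subunit VIa found in most tissues including brain, read 15735, 13696 and 13484 in non-deprived and 13541, 13982 and 13945 in deprived arrays (-0.05, -0.21 to 0.12). Apart from non-deprived replicate 1 the arrays lay within 13484 to 13982. Cox5b read 3804, 3629 and 3599 against 3289, 3541 and 3581 (-0.08, -0.27 to 0.10), and Cox7a2 6926, 6441 and 6370.1 against 5938, 6125 and 6318 (-0.10, -0.27 to 0.06). These 2 structural subunits did not overlap between groups, and both intervals held 0. Cox6c, at 9611, 9809 and 9776 against 10750.4, 9217 and 9540.1, had a change of 0.01 (-0.16 to 0.18), Cox6b1 -0.01 (-0.34 to 0.32) and Cox7b -0.08 (-0.38 to 0.21).

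Cox4i1, the regulatory subunit that binds ATP, had the largest higher mean of the tested members. It read 379.9, 281.5 and 167 in non-deprived and 301, 421 and 435 in deprived arrays (276 ± 107 and 386 ± 73.9; log2 change 0.51, -0.12 to 1.15, adjusted p = 0.97). The groups overlapped, and non-deprived replicate 3 was the lowest array: without it the change was 0.21. This probe set carries the _f suffix, which marks probes that can match related transcripts. The gene's other probe set read 279, 237 and 306 against 333, 357 and 307, with all deprived arrays higher (log2 change 0.27, SE 0.18). Neither probe set has been shown to stand above background.

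Complex IV has forms of some subunits that are typical of heart and skeletal muscle, and others of testis. Cox6a2, the muscle form of subunit VIa, which parvalbumin interneurons also express, read 523, 373 and 407 against 439.5, 184 and 307. Deprived replicate 2 was the lowest, the groups overlapped, and the log2 change was -0.53 (-1.16 to 0.10, adjusted p = 0.97). Beside it, Pvalb read 4989.8, 4618 and 5142 in non-deprived arrays, against 4820, 3773 and 3855 after deprivation, a log2 change of -0.25 (SE 0.11, limma adjusted p = 0.95). Both were lowest in deprived replicate 2. Other interneuron markers differed: Gad1 had -0.13 (SE 0.09) and Gad2 -0.14 (SE 0.31), but Kcnc1 had 0.40 (SE 0.32). Non-deprived replicate 3 was the lowest array for Kcnc1. Without it Kcnc1 had 0.07, Gad1 -0.14 and Gad2 -0.17. Gad1 was also lowest in deprived replicate 2, while Gad2 was highest there. The part of interneuron content was not tested. Cox8b, another muscle form, read 455, 690.5 and 673 against 557, 523 and 483 on an _r probe set (-0.19, -0.59 to 0.21), while its dim probe set read 92.0 to 98.9 against 34.8 to 59.8 and was not tested. Of muscle markers, Myh6 read 12.9 to 51.8, Ckm 53.5 to 266 and Actc1 450.5 to 725 over the 6 arrays, and the 4 markers summed to 697 to 1179 in non-deprived and 848 to 974 in deprived arrays. Signal for a muscle form on these arrays is not shown to come from that transcript.

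Cox8c, the testis form of subunit VIII, read 1506, 1517 and 1704 against 1683, 1852 and 1513 (0.09, -0.16 to 0.34), but its other probe set, an _f one, read 8.3 to 20.7, so that the probe sets disagree on whether the gene is detected. The 4 untested genes of complex IV were Cox5a (mean signal 126), Cox8a, the general form of subunit VIII (61.4), Cox7a1, a muscle form (25.1) and Cox6b2, a testis form (131). Cox5a, a subunit of every complex IV, read 146, 152 and 148 in non-deprived and 92.7, 87.3 and 129.7 in deprived arrays. The groups did not overlap, yet all values lay near or under the filter's level, and its size of change is uncertain.

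**Figure D3:**
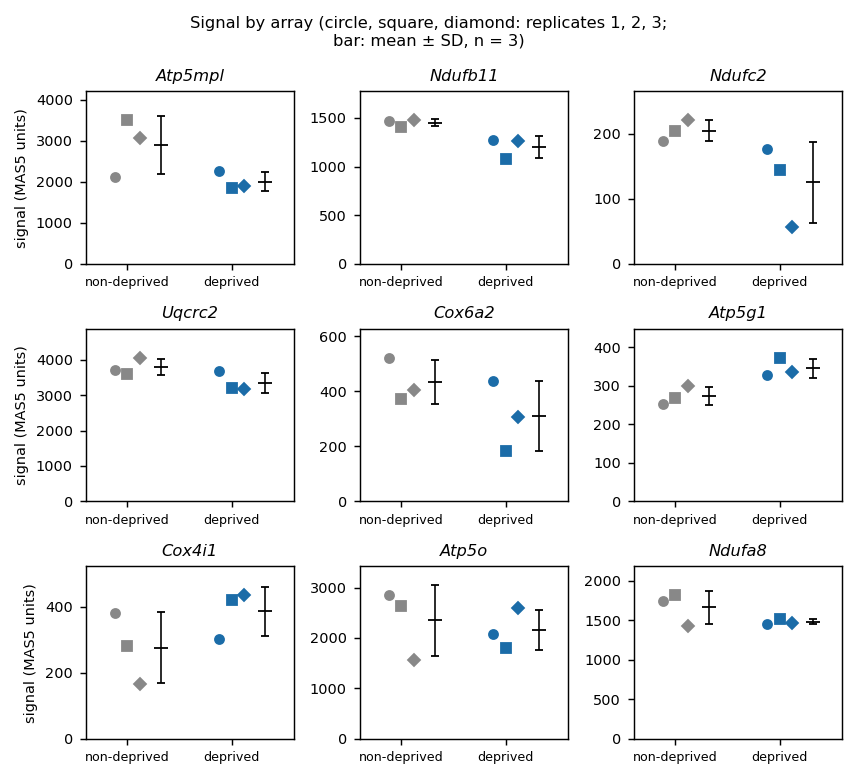
Signal in MAS5 units (y axes from 0) on each array for 9 members chosen after their values were seen, among them the members with an unadjusted p under 0.05 with or without non-deprived replicate 3; symbols give the replicate number and bars the mean ± SD of 3 arrays. Groups are separate for Ndufb11, Ndufc2 and Atp5g1 and overlap for the other 6.

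Complex V is the ATP synthase, a catalytic F1 head on a rotating ring of c subunits, held by a peripheral stalk. Of 13 tested genes 7 had a lower mean and 6 a higher one, with a median log2 change of -0.06 and 0 past the threshold. Of the F1 head, Atp5a1, the alpha subunit, read 8487, 7968 and 7652 against 8409, 8137 and 8109.6 (0.03, -0.13 to 0.19). The central shaft subunit Atp5c1 read 3317, 3839 and 3581 against 3400.5, 3213 and 3342 (-0.11, -0.30 to 0.09), with 0.03 (SE 0.09) on its other probe set. Neither interval reached 0.5 in either direction. Atp5d, at the foot of the shaft, had a change of -0.06 (-0.43 to 0.31), with -0.08 to 0.01 on its 3 other tested probe sets. Atp5e, its partner, read 1913, 1811 and 1059 against 1990.3, 1349 and 2521 (0.29, -0.28 to 0.87), with overlapping groups and a change of 0.02 without non-deprived replicate 3.

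The c ring is encoded by several genes whose mature proteins are the same and whose import sequences differ; probe sets of 2 of them were measured. Atp5g1 read 253, 269.5 and 299 in non-deprived and 327, 373 and 336.5 in deprived arrays. Every deprived array was higher, with means of 274 ± 23.6 and 345.5 ± 24.5, a 1.26-fold difference (log2 change 0.32, -0.07 to 0.71, adjusted p = 0.97). Its other probe set, an _r one at a mean signal of 171, had a change of -0.20 (SE 0.27) and did not show this. Atp5g2 read 545, 696 and 718 against 622, 616 and 597 (-0.08, -0.40 to 0.24), and -0.37 (SE 0.50) on its dimmer probe set.

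The stalk holds the head still against the turning ring. Atp5o, the subunit that ties it to the head, read 2851, 2643 and 1553 against 2087, 1796 and 2588. The spread within groups was wide, with non-deprived replicate 3 lowest of all, and the log2 change was -0.09 (-0.58 to 0.40) with all arrays and -0.36 (95% interval -0.71 to -0.02, adjusted p = 1.00) without that array. Atp5pb, the b subunit, had -0.24 (-0.69 to 0.21), and Atp5j, coupling factor 6, 0.15 (-0.09 to 0.39). The signs of these stalk genes differed, and with all arrays each interval held 0.

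Of the small membrane subunits, Atp5mpl had the smallest p of all members. It encodes a proteolipid that associates with the synthase in the membrane. Its signal was 2128, 3502.5 and 3065 in non-deprived and 2261, 1850.5 and 1892 in deprived arrays. Non-deprived replicate 1 lay among the deprived arrays, so that the groups overlapped, and the other non-deprived arrays were higher than every deprived one. The means were 2899 ± 702 and 2001 ± 226, a 1.45-fold difference (log2 change -0.51, -0.89 to -0.13, limma adjusted p = 0.95). The change ranged from -0.71 to -0.36 over the 6 fits without 1 array, and the smallest adjusted p over all alternatives was 0.15.

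Atp5l, the g subunit, read 7568, 6528 and 6825 against 6123, 6843 and 6564 (-0.10, -0.29 to 0.09) and Atp5md, needed for synthase dimers, 11356, 7635.5 and 7698.5 against 8880.4, 8881 and 10323 (0.10, -0.23 to 0.42). Both overlapped between groups. Atp5k, the e subunit, read 254.5, 316 and 139.6 against 343, 280.1 and 296 (0.42, -0.22 to 1.05). Its non-deprived replicate 3 was the lowest value, and without it the change was 0.10. Atp5j2 averaged 106 and was not tested.

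Of the 3 further genes, Ndufaf1 read 413.5, 574 and 415 against 559, 587 and 518 (0.25, -0.12 to 0.62), Ndufaf4 had -0.22 (-0.79 to 0.36) and Cox7a2l -0.01 (-0.26 to 0.23). None of the 3 separated the groups. Of all members, 21 had several probe sets; of the 11 other probe sets that were tested, 6 had the sign of the brighter one and 5 the opposite sign, and only that of Cox4i1 separated the groups. The Ndufa3 and Ndufb2 pairs gave -0.06 and -0.11, and 0.06 and -0.06.

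**Figure D4:**
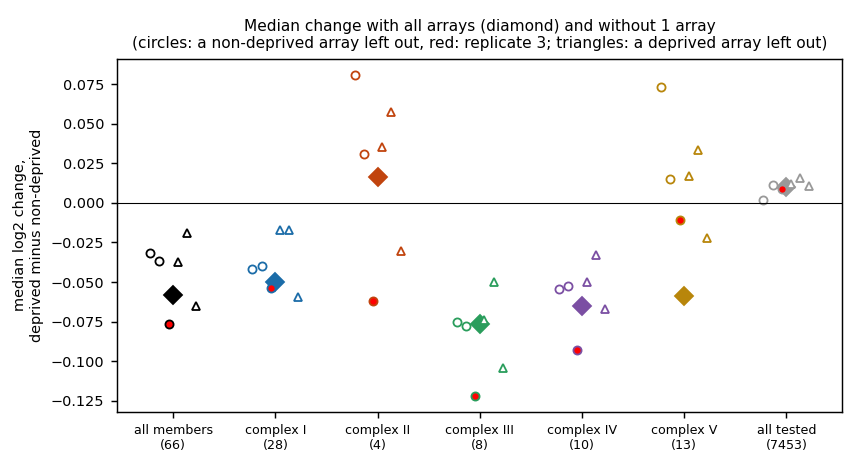
Median log2 change (y axis) of each complex, of all members and of all probe sets tested, with the number of genes in brackets; diamonds use all arrays and the smaller symbols leave out 1 array each. Complexes I, III and IV stay below 0 in every fit, between -0.12 and -0.02, while complexes II and V lie on both sides.

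Complex by complex the medians of complexes I, III and IV were below 0 in each fit that left out 1 array, at -0.06 to -0.02, -0.12 to -0.05 and -0.09 to -0.03. Those of complexes II and V changed sign, at -0.06 to 0.08 and -0.02 to 0.07. The medians of all probe sets tested stayed between 0.00 and 0.02 in the same fits.

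Genes on 7 lists related to mitochondria gave 0 past the threshold on any list (limma, adjusted p under 0.05). Not all of them are mitochondrial, and Ndufaf1 and Ndufaf4 are also among the respiratory genes above. An unadjusted p under 0.05 was found for 1 lower and 2 higher genes in all. Of all probe sets tested, 2.42% were lower and 2.67% higher at that level. The lists held 123 genes on the array. Among these is Pdx1, a different gene that was matched to the planned Pdhx through a shared synonym and was not tested. The number tested is given for each list below. For the citric acid cycle and pyruvate dehydrogenase the median was 0.04 over 19 tested members, 9 lower and 10 higher; Idh2, a mitochondrial isocitrate dehydrogenase, had 0.39 (SE 0.20) and Idh3g, a subunit of the NAD-linked enzyme, 0.23 (SE 0.13). Carriers, porins and energy transfer genes had 0.08 over 14, with 2 lower and 12 higher. Ckmt1, mitochondrial creatine kinase, had 0.26 (SE 0.13) and Slc25a3, the phosphate carrier, 0.46 (SE 0.39). Without non-deprived replicate 3 the medians of these 2 lists were -0.04 and 0.05. In that fit Idh2 had 0.25, Idh3g 0.15, Ckmt1 0.16 and Slc25a3 0.12.

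Assembly factors and electron carriers had a median of 0.05 over 11 tested members, 3 lower and 8 higher, and of 0.00 without non-deprived replicate 3, 6 lower and 5 higher. Of these, Cox18, a factor that inserts a complex IV subunit, had 0.38 (SE 0.18) and Ndufaf1, also a member above, 0.25 (SE 0.17). Mitochondrial ribosome and DNA maintenance genes had 0.05 over 31, 11 lower and 20 higher; the ribosomal protein genes Mrps18a and Mrps36 had 0.33 (SE 0.13) and -0.48 (SE 0.22). With non-deprived replicate 3 left out, Cox18 had 0.17, Ndufaf1 0.18, Mrps18a 0.21 and Mrps36 -0.36. Import, chaperone and dynamics genes had a median of 0.08 over 17 with all arrays, 6 lower and 11 higher. Timm17b, a channel subunit of the inner membrane import machinery, had 0.45 (SE 0.10, limma adjusted p = 0.35). Its means were 1135 ± 75.6 in non-deprived and 1551 ± 26.0 in deprived arrays. Tomm40, the outer membrane channel, had -0.38 (SE 0.18). Without non-deprived replicate 3, Timm17b had 0.48 and Tomm40 -0.51.

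Antioxidant genes had a median of -0.09 over 8 tested members, 5 lower and 3 higher, and -0.16 without non-deprived replicate 3. Gsr, glutathione reductase, read 1049 ± 75.2 and 811 ± 94.4 (log2 change -0.37, SE 0.13, adjusted p = 0.95), and Prdx3, a mitochondrial peroxiredoxin, had -0.20 (SE 0.11). Regulators of respiratory genes had a median of 0.01 over 13, 5 lower and 8 higher; Hif1a, the oxygen-sensing factor, had 0.16 (SE 0.11) and Thra, a thyroid hormone receptor, 0.10 (SE 0.11). Without non-deprived replicate 3, Hif1a had 0.14, Thra 0.02, Gsr -0.32 and Prdx3 -0.22. Some regulators best known for these promoters were named after their values were seen. Ppargc1a, a coactivator, had -0.16 (SE 0.37), Gabpa, an ETS factor, 0.26 (SE 0.33) and Esrra, an orphan nuclear receptor, 0.03 (SE 0.14). Ppargc1a and Gabpa were dim, with mean signals of 151 and 135.5, near the filter's 134.7. Nrf1, which encodes NRF-1, was not among the measured genes of this list.

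Cell content was followed with marker genes, none of which passed. Neuron markers were strong, with Snap25, a synaptic fusion protein, at 18538 to 20953 over the 6 arrays, and 5 of 7 had a lower mean in deprived arrays (median log2 change -0.08). Their summed signal was 47906 to 49454 in non-deprived and 46231 to 48889 in deprived arrays. Interneuron markers (Pvalb, Gad1, Gad2 and Kcnc1) had a median of -0.13 over 4. Of these, 3 were lower and Kcnc1 higher (0.40, SE 0.32, and 0.07 without non-deprived replicate 3). The sums of the 4 markers were 8625 to 8794 and 7092 to 8417, which did not overlap. Pvalb made up more of these sums than the other markers together, and without it they were 3653 to 4007 and 3319 to 3659, which overlapped. Astrocyte markers had a median of 0.04 over 6 (sums 13928 to 14932 and 12405 to 13913, also without overlap). Here the separation rested on Aldoc, an astrocyte glycolytic enzyme (log2 change -0.25): without it the sums were 5844 to 6007 and 5814 to 6221, which overlapped. Both sums without 1 marker were added after the values were seen. Oligodendrocyte markers had a median of 0.02 over 4 of 5 measured, and microglia markers 0.06 over 5 of 7.

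Endothelial and blood markers had a median of -0.08 over 5 of 7 (sums 5499 to 6976 and 5299 to 6571). Of choroid plexus and meninges markers Ttr and Kl, at 36.9 to 164 and 9.2 to 15.7, were not tested, and the other 2 had a median of 0.05. Without non-deprived replicate 3 the median was -0.01 for neuron, -0.15 for interneuron, -0.01 for astrocyte and 0.00 for oligodendrocyte markers. It was -0.06 for microglia, -0.02 for endothelial and blood and -0.04 for choroid plexus markers. The medians of astrocyte, oligodendrocyte, microglia and choroid plexus markers turned from above to below 0. The part of cell content in the values of the respiratory genes was not tested.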

How the data were processed

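RNA of 6 samples was measured on 1 array each. The authors deposited 1 table of MAS5 signal intensity (tool name per the submitters' processing notes; its version is not given in the sources used here) for 12488 probe sets. The arrays stood at a common 2% trimmed mean of 500.3 as deposited, which hides any change in total mRNA, and were not scaled further. After 66 control probe sets were set aside, the top 60% by mean signal (7453) entered limma 3.58.1, run under R 4.3.3 (lmFit, eBayes with intensity trend, group as the only term, two-sided, Benjamini-Hochberg). Gene names came from the platform annotation (10833 probe sets with 1 symbol, 396 with several, left out, and 1237 unnamed here); all 72 members matched RefSeq by gene ID. No detection calls were used, so dim signals could not be told from background, and the number of arrays limits precision. The members and gene lists were chosen with earlier results of these data known. Named were, per complex, the 3 genes with the smallest p, the brightest gene, core subunits, genes whose groups did not overlap with a log2 change of at least 0.2, genes whose probe sets disagreed, and the 2 smallest p of each related list; others were added to account for all members. Alternatives were quantile normalization, pseudocounts of 1 and 64, no filter, the top 40%, the replicate block, eBayes without trend, averaged probe sets per gene, leaving out _f, _r and _i probe sets, leaving out each array, and other thresholds. The fit was tested on 20 simulated sets of 7453 probe sets with 200 changed.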

Additional observations from a re-analysis of the deposited data

How the results depend on the processing

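No alternative gave a member past an adjusted p of 0.05 or 0.10. The number with an unadjusted p under 0.05 was 2 with all arrays (3.03%, against 5.09% of all probe sets). It was 3 with the replicate block (4.55%, against 5.27%) and 4 with probe sets averaged per gene (6.35%, against 5.59% of all genes tested). With eBayes without trend it was again 2 (3.03%, against 4.8%). These were Atp5mpl, lower, and Atp5g1, higher (0.32, 95% interval 0.03 to 0.61), and not Ndufb11. Without 1 array the number was 1 to 5 (1.52% to 7.58%, against 4.16% to 7.5% of all probe sets). Over the fits without 1 array, the median log2 change of all members ranged from -0.076 to -0.019, of complex III from -0.12 to -0.050, of complex IV from -0.093 to -0.033 and of complex V from -0.022 to 0.073. In these fits every deprived array lay below every non-deprived one for 7 to 11 members, against 5 with all arrays and 8.67% to 11% of all probe sets, and above for 2 to 11, against 2 with all arrays and 9.59% to 13.2% of all probe sets. Probe sets past the threshold numbered 13 with all arrays and 7 to 10 without 1 array. No member whose change exceeded 1 SE (25 of 66) changed sign under any alternative; of the others, a sign change was seen for 1 member under quantile normalization, for 3 with probe sets averaged per gene, for 1 when _f, _r and _i probe sets were dropped, and for 7 to 11 without 1 array. Same-numbered arrays did not deviate together (correlations of 0.00, 0.05 and -0.02), so the numbers are not taken as pairs; with the replicate block 0 members and 10 probe sets passed. Signal over background was not known, and the 6 untested members had the lowest signals.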

Other observations

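A further 10 probe sets carry the symbol of a respiratory gene and at least 1 other symbol (among them Cox7c, Ndufs5, Ndufs6, Ndufa11 and Ndufb4), and were left out of the members because their signal cannot be given to 1 gene. Of these, 9 were tested. Their log2 changes lay between -0.14 and 0.03 with a median of -0.03, 7 of 9 had a lower mean in deprived arrays, and the smallest adjusted p was 0.97.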
